A study of Mus musculus with 12 samples.

Results

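Mouse iPS cells, that is induced pluripotent stem cells, that had received 4 factors (iPS4F) were compared with mouse embryonic stem cells (ESC) to find which transcripts still set them apart. The comparison took the 3 arrays titled iPS4F and the 3 titled ESC, 6 of the 12 bead arrays of the study, with all 45281 probes. The iPS4F cells, labelled male, were induced by Oct4 (the gene Pou5f1) with Sox2, c-myc and Klf4. The ESC are OG2 cells described as mixed, female and male. OG2 mice, as background, carry a green fluorescent reporter driven by Oct4 regulatory DNA. The remaining arrays hold OG2 embryonic fibroblasts (MEF, labelled male, 3 arrays) and a line that also received Brg1 and Baf155 (iPS6F, labelled male, 3 arrays), and their values are given beside those of iPS4F. The labels give no number of clones and do not say that replicate arrays came from separate cultures. The p-values therefore reflect only how these arrays vary, which may be technical.

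Reprogramming returns a body cell to a state in which it can again form every tissue of the embryo. Pou5f1, Sox2 and Nanog hold that state by activating one another and many shared targets. The naive form of pluripotency, kept by LIF signalling, also uses Klf4, Klf2, Esrrb, Nr5a2 and Gbx2, while the primed form uses FGF and NODAL signals and genes such as Otx2. Cells that change from fibroblast to pluripotent gain epithelial junctions and turn toward glycolysis on the way. Because RNA was taken from whole cultures, fewer cells of a type and less RNA per cell cannot be told apart.

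Both sets of arrays carried the markers of pluripotent cells. All 8 pluripotent markers (Pou5f1, Nanog, Sox2, Zfp42, Dppa5a, Esrrb, Tdgf1 and Utf1) were detected on all ESC and all iPS4F arrays. Their mean log2 intensity was 9.37 to 9.56 on ESC and 9.52 to 9.75 on iPS4F arrays, against 4.25 to 4.35 on MEF arrays. Of 10 fibroblast markers, none was detected on all ESC arrays, and Thy1, Lox and Bgn were detected on all iPS4F arrays. Their mean level was 4.26 to 4.32 in ESC, 4.65 to 4.75 in iPS4F and 10.95 to 11.13 in MEF. Col1a1, Col3a1, Lum and Postn were detected on no ESC or iPS4F array.

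The sex labels were set beside the genes that report sex. Eif2s3y, a Y-linked translation factor gene, was detected on no ESC array and on all iPS4F and MEF arrays, so the ESC arrays showed no signal of it although the label gives a mix of sexes. Xist, the RNA that silences an X chromosome, was detected on all 3 arrays of the MEF labelled male, by all 4 of its kept probes, on no ESC array, and by 1 of the 4 on 2 iPS4F arrays. The iPS4F arrays were also brighter. Mean raw intensity ran from 213 to 237 on iPS4F and from 139 to 195 on ESC arrays, and the detected probes numbered 17239 to 17741 and 14107 to 16507. Across genes, arrays of 1 group correlated at 0.990 to 0.995, and ESC with iPS4F arrays at 0.956 to 0.966.

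Levels are normalized log2 intensities, and a difference is the mean of the iPS4F arrays minus that of the ESC arrays on that scale, ± its standard error. A gene was read by its brightest kept probe and is said to be called, or to have risen or fallen, where limma's adjusted p over all kept probes was under 0.05. Of 10096 genes, 1751 were higher in iPS4F (17.3%) and 2461 lower (24.4%), 41.7% in all. Counts of the lists below are to be read beside these shares. At least 2-fold apart were 301 genes higher (2.98%) and 302 lower (2.99%), 5.97% in all. The arrays of both groups did not overlap for 5057 genes (50.1%). For the genes named below as risen or fallen the arrays of both groups did not overlap, except for Nes. Where no other probe is mentioned, 1 probe of the gene was kept. Most differences were small, with a median size of 0.28 and a median over all genes of -0.05. The balance of directions depends on the scaling. When arrays were scaled to their median instead of quantile-normalized, the median of all genes moved to 0.39 and 94.2% of the called genes were higher, against 41.6% here. With that scaling centred on the median of all genes, called centred median scaling here, 1545 genes were higher and 1542 lower. The falls within the functional lists described here depend on this choice. In 21 of the 43 lists the genes called lower were fewer by over 1.5 times and at least 2 genes under centred median scaling, and in 2 lists they were more. Where a count of a list moves that far, the counts that rose and fell under centred median scaling follow in brackets as rescaled. Without centring, 26 lists held no gene called lower, and of the 81 named genes called lower 33 kept that call, whereas all 106 named genes called higher kept theirs.

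**Figure D1:**
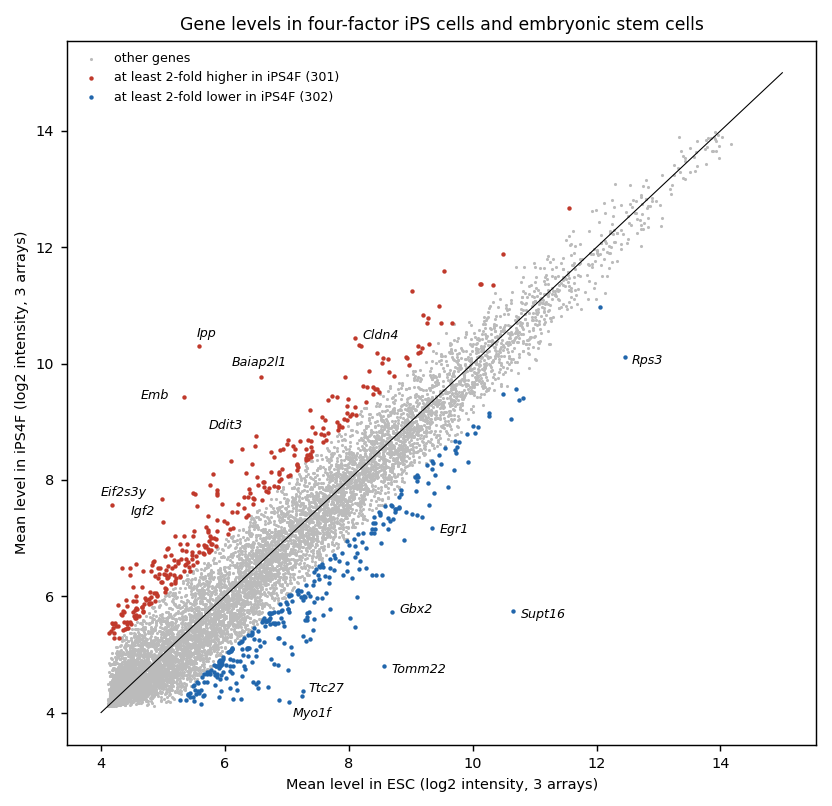
Mean level of each of 10096 genes in iPS4F (vertical) against ESC (horizontal), both as log2 intensity over 3 arrays, with the line of equal levels. Red and blue points are the 301 and 302 genes called and at least 2-fold higher or lower in iPS4F, and grey points are the other genes, most of which lie along the line.

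The delivered factors were read first. Pou5f1 stood at 10.48, 10.30 and 10.23 on the ESC arrays and at 11.22, 11.29 and 11.53 on the iPS4F arrays, a rise of 1.01 ± 0.12 (adjusted p = 5.6e-06). The groups did not overlap, and its other kept probe gave 0.76, also called. Sox2, the DNA-binding partner of Pou5f1, stood at 7.13, 6.41 and 6.85 in ESC and at 8.14, 8.40 and 8.65 in iPS4F (1.60 ± 0.17, adjusted p = 2.33e-06). Its second probe gave -0.26 and was not called. Klf4 went the other way, from 7.04, 7.28 and 6.91 to 6.21, 5.85 and 5.71 (-1.16 ± 0.15, adjusted p = 2.46e-05), with its other probes at -0.51 and -0.01. Myc was detected on no ESC and no iPS4F array. It is not stated in the labels if the delivered copies hold the probe targets, so these readings check neither delivery nor silencing of the added genes.

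The core pluripotency genes went both ways from their ESC levels. Of 21 tested, 6 rose, 9 fell and 6 were not called, with a median difference of 0.01, against -0.05 over all genes. At least 2-fold apart were 3 higher and 1 lower. The falls were fewer under centred median scaling (rescaled, 6 and 2), and numbered 5 under cyclic loess, with the authors' log2 values or without ESC array 3, while with probes averaged 10 rose and 8 fell. Nanog (-0.11 ± 0.15), Dppa5a (0.09 ± 0.11) and Utf1 (0.23 ± 0.14) were not called by their brightest probes, and the arrays of both groups overlapped. The second probes of Nanog and Dppa5a were called higher, at 1.49 and 0.48, so the reading of Nanog depends on the probe. Lin28a, an RNA-binding protein that blocks maturation of let-7 microRNAs, rose from 6.41, 6.11 and 6.09 to 7.34, 7.53 and 7.87 (1.37 ± 0.14, adjusted p = 1.5e-06), and its 3 other probes gave -0.48, 0.89 and 0.35, 1 of them called lower. Dppa2, a chromatin protein of pluripotent cells and early embryos, was the lowest of the list. It fell from 6.13, 5.84 and 6.28 to 4.62, 4.66 and 5.11 (-1.28 ± 0.15, adjusted p = 6.53e-06), with no overlap between the groups.

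The naive genes were split more widely than the core genes. Of 20 tested, 4 rose and 9 fell, 2 and 5 of them at least 2-fold, and the median was -0.28. Gbx2, a homeobox factor that promotes LIF-driven self-renewal, stood at 8.65, 8.70 and 8.73 in ESC and 5.81, 5.74 and 5.66 in iPS4F. That is a fall of 7.78-fold (-2.96 ± 0.10, adjusted p = 1.48e-11). Nr5a2, a nuclear receptor that can replace Pou5f1 in reprogramming, fell from 7.39, 6.82 and 7.64 to 5.63, 5.69 and 5.44 (-1.70 ± 0.20, adjusted p = 6.82e-06), and its other probe gave -0.39. The growth factor Fgf4 and the adhesion molecule Pecam1 rose instead. Fgf4 stood at 5.19, 5.33 and 5.30 in ESC and 6.82, 7.00 and 6.90 in iPS4F (1.64 ± 0.10, adjusted p = 1.73e-08). Pecam1 stood at 6.23, 5.83 and 5.78 and 7.36, 7.55 and 7.81 (1.63 ± 0.14, adjusted p = 4.03e-07), and its other probe at 0.13. Among the markers, Zfp42 (-1.07 ± 0.17) and Esrrb (-0.39 ± 0.11) fell. Zfp42 and Klf2 (-1.22 ± 0.12, named after its value was seen) lie on chromosome 8, and without that chromosome the list's median, relative to all genes, was -0.06.

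Of 15 primed and early lineage genes tested, 4 rose and 2 fell, with a median of 0.02, and none fell without iPS4F array 1. Otx2, a homeobox factor of the epiblast leaving the naive state, rose from 7.87, 7.86 and 7.45 to 9.44, 9.40 and 9.48, 3.27-fold (1.71 ± 0.13, adjusted p = 9.32e-08). All iPS4F arrays lay above all ESC arrays. Zic2, a zinc finger factor of the same stage detected on 2 ESC arrays, rose by 0.88 ± 0.14 and Pou3f1 by 0.54 ± 0.14, though the call of Pou3f1 ended with the authors' log2 values. Nes, an intermediate filament of neural progenitors, was at -0.42 ± 0.16 and detected on 2 iPS4F arrays. The arrays overlapped, and the call ended in several alternatives, among them without ESC array 2 (-0.23, adjusted p = 0.249).

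Of 24 signalling genes 3 rose and 9 fell, beside 17.3% and 24.4% of all genes, with a median of -0.21. Id1, an inhibitor of differentiation induced by BMP, fell from 6.73, 6.97 and 6.67 to 4.67, 4.87 and 4.98, 3.86-fold (-1.95 ± 0.13, adjusted p = 2.94e-08). The ligand Bmp4 fell from 7.44, 7.27 and 7.24 to 5.39, 5.73 and 5.80 (-1.68 ± 0.12, adjusted p = 3.89e-08), while its other probe, detected on 1 ESC array, gave -0.21 and was not called. Id2, of the same family as Id1, went the other way. By its brightest probe it was detected on no ESC array and on all iPS4F arrays, at least 1.98-fold higher (adjusted p = 4.14e-05). Its other probe, detected on 1 ESC array, gave 0.33 and was not called. The FGF receptor Fgfr2 rose by 0.99 ± 0.15 (adjusted p = 9.77e-05), with its second probe at 0.13. Among 16 immediate early genes, which respond within minutes to growth signals, 3 rose and 2 fell. Egr1, a target of ERK signalling, stood at 9.22, 9.45 and 9.38 in ESC and 7.29, 7.16 and 7.08 in iPS4F (-2.17 ± 0.16, adjusted p = 7.38e-08), whereas Fos (0.82 ± 0.19) and Klf6 (0.88 ± 0.15, other probe 0.24 and not called) rose. Junb, on chromosome 8, was lower by 0.73 ± 0.18, a call that ended under centred median scaling (-0.46, adjusted p = 0.124).

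**Figure D2:**
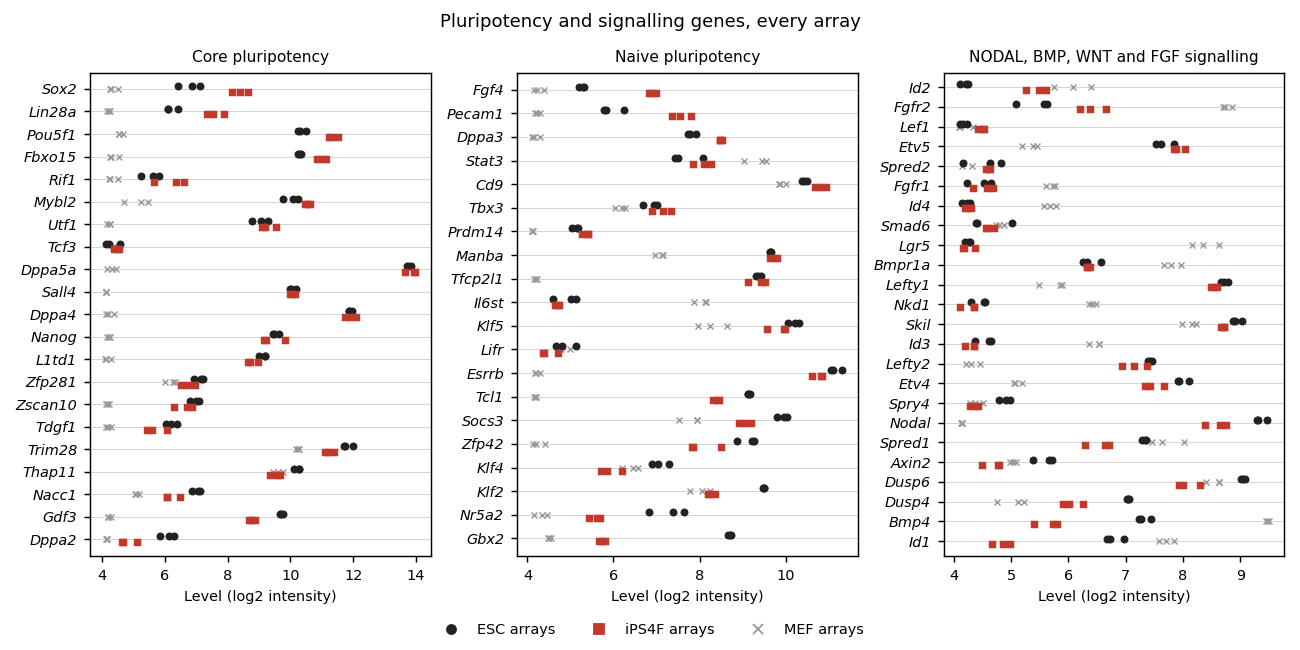
Log2 intensity of every tested core pluripotency, naive pluripotency and signalling gene on each ESC (black circles), iPS4F (red squares) and MEF (grey crosses) array. Core genes lie on both sides of their ESC levels, from Sox2 at the top to Dppa2 at the bottom, and Gbx2, Nr5a2, Id1 and Bmp4 lie lower and Sox2, Fgf4, Pecam1 and Id2 higher in iPS4F.

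The genes farthest from ESC were ranked among those whose arrays did not overlap and whose other probes did not oppose. Ipp, a kelch repeat protein, led the rises, from 5.37, 5.55 and 5.81 in ESC to 10.46, 10.27 and 10.18 in iPS4F, 26.4-fold (4.72 ± 0.14, adjusted p = 6.15e-12). Emb, embigin, a cell surface adhesion molecule, rose from 5.14, 5.37 and 5.51 to 9.63, 9.26 and 9.38 (4.08 ± 0.13, adjusted p = 1.11e-11). Baiap2l1, which bends membranes over actin, rose from 6.59, 6.62 and 6.52 to 9.89, 9.66 and 9.76 (3.20 ± 0.11). These genes were read by 1 kept probe each. Eif2s3y was at least 8.56-fold higher (adjusted p = 1.3e-10), its other probe being detected on no array of either group. Igf2, an imprinted fetal growth factor, rose from 4.77, 4.92 and 5.33 to 7.36, 7.34 and 7.12 (2.27 ± 0.16), and stood 9.01 above ESC in MEF.

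The other genes of this end had varied roles. P4ha1, which hydroxylates collagen and was detected on 2 ESC arrays, rose by 2.70 ± 0.20 (other probe 1.01), and the tight junction protein Cldn4 by 2.35 ± 0.10. The ubiquitin ligase Rnf114 rose by 2.29 ± 0.16 (other probe 2.75). Slc25a36, a mitochondrial nucleotide carrier, rose by 2.25 ± 0.19 (other probes 0.91 and 0.29). Eif4b, a translation initiation factor, rose by 2.29 ± 0.16, but its other probe gave 0.07 and was not called. In iPS6F the same 12 genes stood 1.14 to 4.53 above ESC, a comparison that shares the ESC arrays.

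The deepest fall was that of Supt16, which as part of FACT helps polymerases past nucleosomes, from 10.40, 10.91 and 10.66 in ESC to 5.37, 5.85 and 6.03 in iPS4F (-4.90 ± 0.19, adjusted p = 8.24e-11). Its other probe gave -0.62, called in the same direction but far smaller. Tomm22, a receptor of the mitochondrial import pore, fell from 8.50, 8.70 and 8.49 to 4.71, 5.07 and 4.62, 13.6-fold (-3.76 ± 0.13, adjusted p = 1.51e-11). It was read by 1 kept probe. Apoa2, an apolipoprotein of the yolk sac and liver, fell from 7.25, 7.45 and 7.09 to 4.27, 4.63 and 4.22 (-2.89 ± 0.14), detected on 1 iPS4F array, and its other probe gave -2.73. Ttc27 and the class I myosin Myo1f were detected on all ESC arrays and on no iPS4F array, at least 7.37-fold and 6.39-fold lower (adjusted p = 8.56e-11 and 8.24e-11).

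Further falls were those of Mpi, which isomerizes mannose phosphate (-2.62 ± 0.14), Msc, a basic helix-loop-helix repressor (-2.29 ± 0.16), and Glrx, a glutaredoxin (-2.15 ± 0.13, other probe -2.26). Heatr3 (-2.38 ± 0.14) and Map1s, a microtubule-binding protein (-2.17 ± 0.14), lie on chromosome 8. In iPS6F the 12 genes of this end stood at -4.55 to -1.80 against the same ESC arrays. Of the 24 genes at both ends, 15 had 1 kept probe, and 8 of the other 9 were called in the same direction by another probe, the exception being Eif4b.

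**Figure D3:**
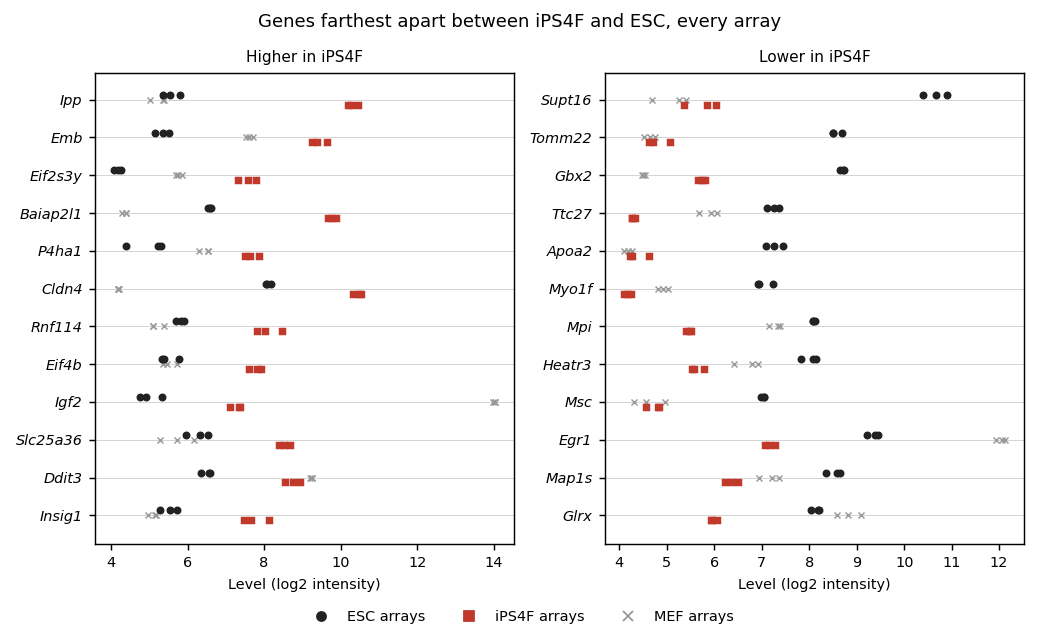
Log2 intensity on each ESC (black circles), iPS4F (red squares) and MEF (grey crosses) array of the 12 genes farthest higher and the 12 farthest lower in iPS4F than in ESC. The ESC and iPS4F arrays of a gene form separate clusters in every case, and the MEF arrays fall beside either group or apart from both.

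Some genes were supported by several probes. Eef2, the translation factor that moves the ribosome along, was read higher by 3 probes, at 2.23, 2.14 and 2.23. Hnrnph1, a splicing factor, was read higher by 5 probes, at 1.54, 2.01, 1.59, 1.63 and 1.89. Pfkp gave 1.70 and 2.30, Ddit3 2.25 and 1.72 and Erdr1 2.50 and 2.11. The formin Diaph1, detected on 2 ESC arrays by its brightest probe, gave 1.45 and 1.55. Among genes read lower by every kept probe were Wdr46, a nucleolar protein (-1.89 and -1.83), Mras, a small GTPase (-2.02 and -1.81), Mia, a small secreted protein (-1.95 and -1.73), Zc3h4 (-1.78 and -1.62) and Sphk2, a sphingosine kinase (-1.56 and -1.58). By the brightest probe Wdr46 was detected on 1 and Mras on 2 iPS4F arrays.

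Epithelial adhesion genes stood out by function, since 17 of 26 tested rose and none fell, 12 of them at least 2-fold, with a median of 0.87. Cldn4 stood at 8.07, 8.05 and 8.19 in ESC and 10.32, 10.49 and 10.53 in iPS4F. Grhl2, a transcription factor that turns on epithelial junction genes, was detected on 2 ESC arrays and rose from 4.40, 4.61 and 4.38 to 6.63, 6.50 and 6.33, 4.07-fold (2.03 ± 0.12, adjusted p = 7.74e-09). Rab25, a vesicle GTPase of epithelia, rose from 6.22, 6.58 and 6.52 to 8.11, 8.35 and 8.38 (1.84 ± 0.13, other probe 1.49). In all 3 genes every iPS4F array lay above every ESC array. Krt18, a simple epithelial keratin, rose by 1.49 ± 0.13. The 9 members that were not called included Cdh1, E-cadherin, on chromosome 8, at -0.16 ± 0.12, though its other probe was called higher at 0.43 (named after its values were seen). Relative to all genes the list's median lay between 0.50 and 1.42 under every alternative.

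Glycolysis and hypoxia genes also rose more often than they fell. Of 17 glycolysis genes, 12 rose and 1 fell, with a median of 0.50. Pfkp, a phosphofructokinase, rose from 7.85, 7.61 and 7.56 to 9.10, 9.46 and 9.56 (1.70 ± 0.16, adjusted p = 6.95e-07). Aldoc, an aldolase, rose by 1.34 ± 0.15 and Pgk1, a phosphoglycerate kinase, by 1.24 ± 0.12 (other probe 1.02). Hk1, a hexokinase, was detected by its brightest probe on no ESC array and was at least 2.08-fold higher (adjusted p = 2.29e-07). Its other probe, detected on 1 ESC array, gave 0.49. Of 18 hypoxia genes, 9 rose and 2 fell, with a median of 0.37. P4ha1 stood at 5.30, 4.40 and 5.23 in ESC and 7.51, 7.65 and 7.88 in iPS4F. Plod2, a collagen lysyl hydroxylase, rose by 1.62 ± 0.12, against its other probe at -0.46, called lower, and Ddit4, an inhibitor of mTOR signalling, by 1.53 ± 0.11.

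Targets of p53 and inhibitors of the cell cycle rose in 15 of 24 cases and fell in 2, with a median of 0.62. Cdkn2b, an inhibitor of Cdk4 and Cdk6, stood at 4.66, 4.62 and 4.77 in ESC and 6.58, 6.31 and 6.41 in iPS4F, 3.36-fold higher (1.75 ± 0.11, adjusted p = 2.12e-08). Phlda3, an inhibitor of Akt, rose by 1.40 ± 0.14 (other probe 0.90), and Gadd45g, a stress-induced growth inhibitor, by 1.07 ± 0.13 (other probe 0.88). Tnfrsf10b, a death receptor, went lower by 1.16 ± 0.20, with its other probes at 0.08, 0.30 and 0.36, and the call ended when probes were averaged (-0.11, adjusted p = 0.473). Cyclins, their kinases and mitosis genes rose in 6 of 22 cases and fell in 4 (rescaled, 5 and 1), or in 2 without ESC array 1, ESC array 3 or iPS4F array 2. Top2a, a topoisomerase of dividing cells, rose by 0.90 ± 0.16 (other probes -0.13 and 0.63) and Aurkb, a mitotic kinase, by 0.71 ± 0.12. Ccnd1, cyclin D1, was lower by 0.67 ± 0.13 (other probes -0.66 and 0.09), a call that ended under centred median scaling (-0.37, adjusted p = 0.223).

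Of 29 DNA replication genes, 12 fell and 4 rose (rescaled, 4 rose and 1 fell), with a median of -0.18. Relative to all genes their median turned from -0.12 to 0.04 under centred median scaling. Without chromosome 8, 7 of 23 fell and 4 rose, with a median of -0.03 relative to all genes. Gins4 (-1.38 ± 0.10) and Gins3 (-0.61 ± 0.15), subunits of the replicative helicase, were the lowest and both lie on chromosome 8. The call of Gins3 ended under centred median scaling. Mcm3, of the helicase ring, rose by 1.01 ± 0.14 and Rpa2, which coats single-stranded DNA, by 0.68 ± 0.18 (other probes 0.31 and 0.01). Repair genes rose in 4 of 23 cases and fell in 4 (rescaled, 5 and 0), or in 1 with probes averaged. Tdg, which excises thymine and oxidized methylcytosine, rose by 0.87 ± 0.17 and Brca1 by 0.56 ± 0.12, while Brca2 was lower by 0.71 ± 0.15 (other probe -0.64), a call that ended under centred median scaling. Apoptosis regulators rose in 6 and fell in 6 of 22 cases, and the lowest, Casp9, had probes called in opposite directions.

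Genes of the integrated stress response went both ways. At least 2-fold apart were 6 higher and 1 lower, beside 2.98% and 2.99% of all genes. This response slows translation and induces Atf4, which activates amino acid transporters, synthetases and Ddit3. Of 40 genes tested, 10 rose and 13 fell (rescaled, 11 and 6), beside 17.3% and 24.4% of all genes, with a median of -0.05 that changed sign relative to all genes between alternatives, from -0.04 to 0.10. Ddit3, the transcription factor CHOP, rose from 6.58, 6.57 and 6.36 in ESC to 8.56, 8.76 and 8.93 in iPS4F, 4.75-fold (2.25 ± 0.13, adjusted p = 9.79e-09). Cars, which charges cysteine tRNA, rose by 1.89 ± 0.18 (other probe 0.17), the amino acid transporter Slc38a2 by 1.73 ± 0.19 (other probes 0.09 and 0.16) and Phgdh, the first enzyme of serine synthesis, by 1.27 ± 0.18. Chac1, a glutathione-degrading enzyme and the lowest of the list, fell from 8.26, 8.35 and 8.56 to 7.20, 7.33 and 7.24 (-1.13 ± 0.12, adjusted p = 2.22e-06). Chaperone and unfolded protein response genes rose in 9 of 23 cases and fell in 2, with a median of 0.25. Calr, calreticulin of the endoplasmic reticulum, on chromosome 8, rose by 1.49 ± 0.14, Pdia4, a disulphide isomerase, by 1.06 ± 0.19 and Hsp90b1 by 0.78 ± 0.16, while Dnajb1, a cytosolic cochaperone on the same chromosome, fell by 0.80 ± 0.09.

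Of 18 cholesterol synthesis genes, 6 were higher and 5 lower (rescaled, 6 and 1), the latter 3 without ESC array 2 or without chromosome 8. They had a median of -0.11 that changed sign relative to all genes between alternatives, from -0.14 to 0.03. Insig1, which holds the sterol sensor in the endoplasmic reticulum, rose from 5.72, 5.27 and 5.55 to 7.47, 7.65 and 8.13, 4.73-fold (2.24 ± 0.16, adjusted p = 5.67e-08), and its other probes gave 2.25 and 0.57. Cyp51, a demethylase of the pathway, rose by 1.17 ± 0.16 and Dhcr7, its last reductase, by 0.81 ± 0.16. The call of Dhcr7 ended with the authors' log2 values. Msmo1, a methylsterol oxidase, was the lowest, from 9.17, 9.36 and 9.41 to 9.08, 8.64 and 8.73 (-0.50 ± 0.13, adjusted p = 0.00668), and its call ended under centred median scaling (-0.20, adjusted p = 0.517).

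Promoters of the highest and the lowest called member of these lists are shown because they went in opposite directions. They were taken from RefSeq on build GRCm38.p6, from 250 bases before to 50 after the gene's start. The element TGATGNAA, bound by C/EBP and ATF proteins, and the sterol element TCACNCCA were searched on both strands, and matches are in capitals.
Ddit3, chr10:127290543-127290842, plus strand: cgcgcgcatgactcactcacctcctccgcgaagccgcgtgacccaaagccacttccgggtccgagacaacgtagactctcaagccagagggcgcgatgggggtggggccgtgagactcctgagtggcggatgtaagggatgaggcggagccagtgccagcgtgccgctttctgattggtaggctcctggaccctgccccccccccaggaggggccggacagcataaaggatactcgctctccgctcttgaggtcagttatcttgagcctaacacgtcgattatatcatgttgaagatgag
Chac1, chr2:119350992-119351291, plus strand: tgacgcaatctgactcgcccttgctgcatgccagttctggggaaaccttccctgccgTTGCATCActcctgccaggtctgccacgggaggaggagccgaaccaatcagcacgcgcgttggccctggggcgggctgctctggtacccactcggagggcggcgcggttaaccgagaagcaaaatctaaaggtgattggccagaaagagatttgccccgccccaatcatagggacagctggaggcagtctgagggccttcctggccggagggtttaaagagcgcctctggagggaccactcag
Insig1, chr5:28071162-28071461, plus strand: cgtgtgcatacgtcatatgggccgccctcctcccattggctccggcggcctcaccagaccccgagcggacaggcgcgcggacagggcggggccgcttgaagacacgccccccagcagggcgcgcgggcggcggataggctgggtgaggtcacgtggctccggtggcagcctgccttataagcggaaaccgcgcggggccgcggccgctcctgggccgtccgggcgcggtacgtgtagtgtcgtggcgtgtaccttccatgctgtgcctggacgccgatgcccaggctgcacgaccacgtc
Msmo1, chr8:64733529-64733828, minus strand: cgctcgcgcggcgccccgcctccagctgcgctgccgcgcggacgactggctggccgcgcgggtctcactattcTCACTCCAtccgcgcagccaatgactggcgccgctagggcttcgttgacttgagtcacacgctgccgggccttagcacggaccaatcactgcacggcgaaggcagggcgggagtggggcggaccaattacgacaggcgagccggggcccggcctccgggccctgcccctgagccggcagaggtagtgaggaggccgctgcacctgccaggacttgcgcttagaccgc
Chac1 held 1 match to TGATGNAA, read on the opposite strand and starting at position -193 from the gene start. Msmo1 held 1 match to TCACNCCA, starting at position -177, and neither element was found in the windows of Ddit3 and Insig1. Of all 32851 promoters, 3.969% held TGATGNAA and 4.362% held TCACNCCA. Promoters were given for 8 of the 10 stress response genes that rose and 9 of the 13 that fell, and for 5 of the 6 and 5 of the 5 cholesterol genes. TGATGNAA was present for 0 of 8 stress response genes that rose and 2 of 9 that fell (Chac1 and Aars), and TCACNCCA for 0 of 5 cholesterol genes that rose and 1 of 5 that fell. A match is a run of letters and says nothing of binding.

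Mitochondrial import and ribosome genes were called lower more often than higher. Of 35 tested, 18 fell and 2 rose (rescaled, 2 rose and 4 fell), 4 falls being at least 2-fold, with a median of -0.37. Relative to all genes the median lay between -0.35 and -0.14 under every alternative. Beside Tomm22, Mrpl27, of the large subunit of the mitochondrial ribosome, fell from 7.86, 7.70 and 7.52 to 5.95, 5.42 and 5.97 (-1.91 ± 0.15, adjusted p = 1.21e-07). Mrpl34, on chromosome 8, fell by 1.23 ± 0.16 and Mrps18a by 1.01 ± 0.11. Oxidative phosphorylation subunits fell in 14 of 49 cases and rose in 7 (rescaled, 3 rose and 5 fell). Before rescaling these shares lay near the 24.4% lower and 17.3% higher of all genes. The rises numbered 2 to 4 without ESC array 2, ESC array 3 or any 1 iPS4F array. The median of these subunits was -0.14, and relative to all genes it turned from -0.08 to 0.09 under centred median scaling. Ndufb7, a subunit of complex I on chromosome 8, fell by 1.11 ± 0.16 and Ndufa8 by 0.74 ± 0.11 (other probe -0.38). Ndufb10, of the same complex, was lower by its brightest probe at -1.06 ± 0.11 and higher by the other, at 1.77.

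Proteasome subunits fell in 9 of 29 cases and rose in 3 (rescaled, 2 and 2), and their median relative to all genes turned from -0.05 to 0.09 under centred median scaling. Psmb10, an immunoproteasome protease on chromosome 8, fell by 1.73 ± 0.13 (other probe -1.998), and Psmb5, a constitutive protease subunit, fell from 8.21, 8.21 and 7.97 to 6.71, 6.59 and 6.94 (-1.39 ± 0.15). Psmd8 (1.05 ± 0.15) and Psmd2 (0.72 ± 0.14, detected on 2 ESC arrays, other probe 0.23 and not called), of the regulatory particle, rose. Of 30 cytosolic ribosomal proteins none rose and 5 fell (rescaled, 0 and 3), while under cyclic loess 2 rose and 6 fell. The lowest was Rps3 at -2.34 by its brightest probe, and its other probe was called higher at 0.96. Rplp0, of the ribosomal stalk, fell by 0.97 ± 0.11, while the calls of Rpl24 and Rpl7a ended under centred median scaling. Ribosome biogenesis genes rose in 4 of 26 cases and fell in 7 (rescaled, 3 and 1). Before rescaling these shares lay near the 17.3% higher and 24.4% lower of all genes. The rises numbered 1 or 2 without ESC array 2, ESC array 3 or iPS4F array 2. Nop56, a core protein of methylation guide particles, stood apart at 0.98 ± 0.16.

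Among chromatin regulators, DNA methylation and Tet genes rose in 6 of 12 cases and fell in 1, with a median of 0.36. Relative to all genes that median lay between 0.30 and 0.63 under every alternative. Mbd4, a repair enzyme at methylated sites, rose by 0.91 ± 0.13, Mbd3, of the NuRD complex, by 0.69 ± 0.15, and Dnmt3l, a partner of the de novo methyltransferases, by 0.64 ± 0.11 (other probe 0.97). Polycomb and trithorax genes rose in 7 of 26 cases and fell in 2, or in 5 without background correction. Ezh2, the methyltransferase of PRC2, rose from 8.75, 8.30 and 8.58 to 10.13, 10.01 and 9.89, 2.77-fold (1.47 ± 0.15, adjusted p = 2.28e-06) (other probe -0.08). Rbbp7, a histone-binding subunit of PRC2 and other complexes, rose by 1.56 ± 0.23, with its other probes at 1.51, 1.63 and -0.21. Rbbp4, its close relative, was lower by 0.97 ± 0.13, with other probes at 0.09 and 0.53, and that call ended when probes were averaged. Histone demethylases and deacetylases rose in 6 of 23 cases and fell in 4 (rescaled, 4 and 1), the falls being 2 without ESC array 1. Kdm5a, a histone demethylase, was detected by its brightest probe on no ESC array and was at least 1.46-fold higher (adjusted p = 2.05e-05). Its other probe, detected on 1 ESC array, gave 0.04 and was not called. Kdm4c, of another demethylase family, rose by 0.60 ± 0.12.

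The BAF complex, whose subunits Brg1 (Smarca4) and Baf155 (Smarcc1) were added to the other line, had 3 genes up and 5 down of 23 (rescaled, 2 and 1). Before rescaling these shares lay near the 17.3% higher and 24.4% lower of all genes. Brd7 (-0.83 ± 0.11), on chromosome 8, and Smarca4 (-0.81 ± 0.11) were the lowest, and both calls ended under centred median scaling (-0.53, adjusted p = 0.0767 and -0.53, adjusted p = 0.0746). The second probe of Brd7 gave -0.03 and was not called. Ss18 rose by 0.77 ± 0.12 (other probe 0.37). Among 22 histone and histone chaperone genes, 6 rose and 6 fell (rescaled, 5 and 1). The histone genes H2bc6 (0.90 ± 0.15, other probes 0.14 and -0.05) and H2bc21 (0.88 ± 0.18) rose, though near-identical histone copies can share a probe. Supt16 was the deepest fall.

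Imprinted genes, which are expressed from 1 parental copy, rose in 11 of 24 cases and fell in 3, or in 5 without ESC array 1, with a median of 0.22. Igf2 was highest, Copg2, a coat protein gene beside the imprinted Mest, rose by 1.10 ± 0.17 and Gnas by 1.07 ± 0.16, with its other probes at 0.40, 0.70 and 0.24. Ndn, necdin, a paternally expressed growth regulator, fell from 6.63, 6.76 and 6.53 to 5.31, 5.10 and 5.22 (-1.43 ± 0.15, adjusted p = 2.05e-06). Germline genes rose in 8 of 22 cases and fell in 6 (rescaled, 8 and 3). Hormad2, a meiotic chromosome protein, rose by 1.44 ± 0.12, Taf7l, a germ cell transcription factor subunit, by 0.94 ± 0.16 and Tfap2c, a regulator of germ cells and trophectoderm, by 1.16 ± 0.09 (other probes 1.53 and 1.14). Zp3, of the egg's coat, fell by 0.94 ± 0.15. Of 12 genes of the 2-cell stage and of telomeres, 2 rose and 4 fell (rescaled, 1 and 1). Terf1, which binds telomere repeats, rose from 6.05, 5.70 and 6.21 to 7.64, 7.60 and 6.63 (1.30 ± 0.26), and Tcstv3, a transcript of the 2-cell embryo, fell by 1.12 ± 0.11.

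Genes of the extraembryonic lineages rose in 7 of 19 cases and fell in 4 (rescaled, 7 and 2), or in 2 without ESC array 2, iPS4F array 2 or iPS4F array 3. Krt18 and Tfap2c were the largest rises beside Id2, and Apoa2 was the deepest fall. Of 5 trophectoderm markers 1 was detected on all iPS4F arrays, Eomes, and none on all ESC arrays, and of 5 primitive endoderm markers Gata6 and Dab2 were detected on all arrays of both. The matrix and adhesion list of integrins and basement membrane rose in 7 of 25 cases and fell in 5, though in 10 under cyclic loess. Lama1, a laminin chain, fell from 7.75, 7.96 and 8.01 to 6.53, 6.45 and 6.13 (-1.54 ± 0.13), Itga3, an integrin chain, by 1.12 ± 0.16 and Lamb2 by 1.11 ± 0.18.

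Of 43 fibroblast and mesenchyme genes 9 rose and 6 fell, with a median of 0.01 for a list that stood 5.20 higher in MEF than in ESC. The balance of this list depends on the scaling, since more genes fell under centred median scaling (rescaled, 7 and 14) and under cyclic loess (7 and 25). Relative to all genes its median ran from -0.33 under cyclic loess to 0.26 over genes detected on all arrays of ESC or of iPS4F. Fn1, fibronectin, rose from 7.15, 6.73 and 6.80 to 8.35, 8.42 and 8.78 (1.62 ± 0.15, adjusted p = 5.68e-07), and its other probes gave 0.52, 0.11 and 0.90. Bgn, a matrix proteoglycan, was detected on 2 ESC and all iPS4F arrays and rose by 1.35 ± 0.17, against 9.18 in MEF. Lox, which cross-links collagen, was detected on no ESC array and was at least 1.86-fold higher in iPS4F (adjusted p = 9.68e-07), with MEF 9.42 above ESC. Serpinf1, a secreted serpin, fell by 1.24 ± 0.12. Over all genes, 224 were detected on every iPS4F and no ESC array, of which 155 were called and 7 had a bound of at least 2-fold. Another 53 were detected on every ESC and no iPS4F array, of which 51 were called and 8 had such a bound. The iPS4F arrays were brighter with more detected probes, so the sizes of these groups are not compared. The part that fibroblasts in the cultures have in the values of the fibroblast list was not tested.

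Of 24 interferon and antigen presentation genes 8 rose and 2 fell (rescaled, 3 and 1), with a median of 0.25. Under cyclic loess 4 rose and 5 fell, and only 5 rose without iPS4F array 3. Irf1, an interferon-induced transcription factor, rose by 0.80 ± 0.11 (other probes 0.38, 1.20 and 1.07). The call of Tapbp ended under centred median scaling and cyclic loess, and its other probe gave 0.13 and was not called. Blood and macrophage markers rose in 1 of 13 cases and fell in 2 (rescaled, 1 and 8), with 7 falls under cyclic loess, and of 5 macrophage markers none was detected on all ESC or all iPS4F arrays. Antioxidant genes rose in 10 of 30 cases and fell in 7 (rescaled, 10 and 1). Nfe2l2, the regulator Nrf2, rose from 5.35, 5.08 and 5.44 to 6.52, 6.67 and 6.70 (1.34 ± 0.14), Sqstm1, an autophagy receptor, by 1.06 ± 0.13 and Mt1, a metallothionein on chromosome 8, by 0.79 ± 0.16. Lysosomal genes rose in 8 of 21 cases and fell in 4, led by Ctsa, cathepsin A, at 1.74 ± 0.17 (other probes 0.35, 0.31 and -0.11), and by Lamp1, on chromosome 8, at -0.89 ± 0.12. Retinoid and nuclear receptor genes had no rise and 5 falls among 10, or 2 falls with probes averaged, with a median of -0.30. Crabp1, which binds retinoic acid in the cytosol, fell from 6.73, 7.05 and 6.82 to 5.11, 5.31 and 5.40 (-1.59 ± 0.14, adjusted p = 5.72e-07).

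RNA-binding and microRNA pathway genes rose in 5 of 21 cases and fell in 7 (rescaled, 4 and 2). Hnrnpa1, a splicing factor, rose by 1.18 ± 0.14, with its other probes at 0.55 and 1.36, and Esrp1, which sets epithelial splicing, rose by 1.03 ± 0.11. Elavl2, an RNA stabilizer of neurons and germ cells, fell by 1.07 ± 0.12 (other probe -0.99). In lipid metabolism 4 of 21 genes rose and 4 fell (rescaled, 6 and 1). Acadl, which starts the breakdown of long fatty acids, was detected by its brightest probe on no ESC array and was at least 1.75-fold higher (adjusted p = 0.000306). Its other probe, detected on 2 ESC arrays and no iPS4F array, gave -0.17 and was not called. Plin2, of the lipid droplet coat, rose by 0.96 ± 0.17 and Apoe by 0.85 ± 0.13. Serine, folate and nucleotide genes rose in 6 of 23 cases and fell in 4 (rescaled, 5 and 0), and Umps, a pyrimidine enzyme, was at 1.17 ± 0.15 by its brightest probe and at -0.47 and -0.41 by the others, 1 of them called lower.

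**Figure D4:**
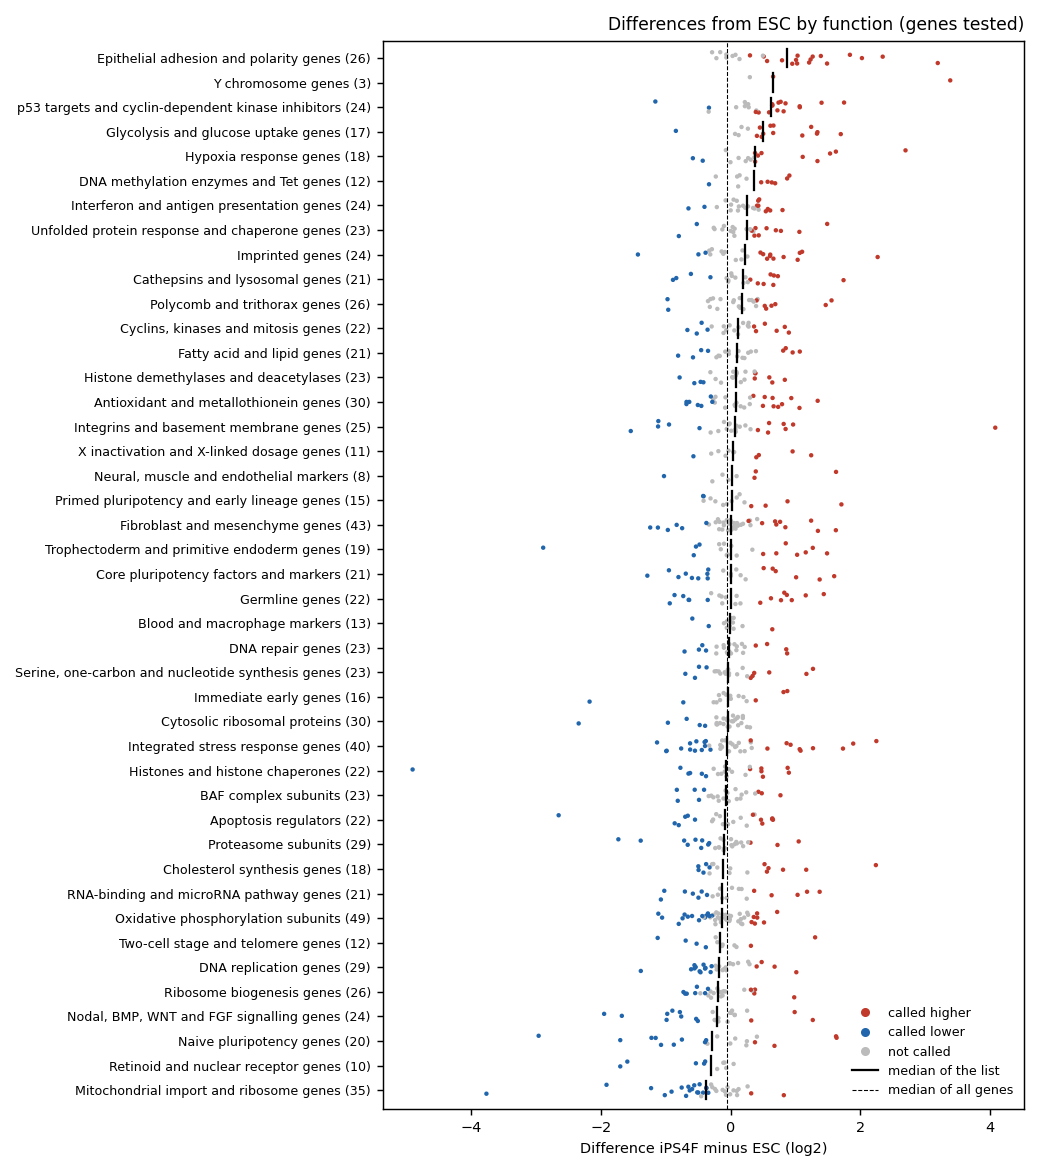
Difference iPS4F minus ESC (log2) of every tested member of 43 functional lists, ordered by list median, with the number tested in brackets. Red and blue points were called higher and lower, grey points were not called, black bars are list medians and the dashed line is the median of all genes, -0.05; epithelial genes lie highest at 0.87, and mitochondrial import and ribosome genes are at -0.37.

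Genes on chromosome 8 fell more often than all genes did, though most falls lay on other chromosomes. It had 540 tested genes, and 275 of these fell (50.9%, against 24.4% of all genes) while 38 rose (7.04%, against 17.3%), with a median of -0.38. Under centred median scaling 159 of the 540 fell (29.4%, against 15.3% of all genes). It held 62 of the 302 genes at least 2-fold lower. The X chromosome showed no such shift, with 60 of 335 genes higher and 70 lower and a median of -0.04. Usp9x, detected on 1 ESC array, rose by 0.96 ± 0.13, and Zfx was lower by 0.57 ± 0.11, a call that ended under centred median scaling. The cause of the shift was not tested. Without chromosome 8, 1708 genes were higher and 2180 lower.

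Since several probes read 1 gene, each was checked. Of 3648 genes with more than 1 kept probe, all probes were called higher for 315 and lower for 291, and some were called with none opposed for 1575. Probes were called in opposite directions for 239 and none was called for 1228. Among the 603 genes at least 2-fold apart, 353 had a single kept probe. Of the other 250, another probe was called in the same direction for 172 and in the opposite direction for 18, and no other was called for 68. A further 267 genes were under 2-fold by the brightest probe and at least 2-fold by another, 223 of them higher.

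The genes whose probes lay farthest apart show how the reading depends on the probe. Casp9, an initiator caspase, stood at 6.88, 6.72 and 7.02 in ESC by its brightest probe and was undetected on all iPS4F arrays, at least 5.72-fold lower, while its other probes gave 0.44, 1.04 and 0.32, 2 of them called higher. Rps3, a ribosomal protein, was lower at -2.34 ± 0.15 and higher at 0.96 by its second probe. G3bp1, a stress granule protein, gave -0.66 ± 0.11 and 2.37, Pdxdc1 (detected on 2 iPS4F arrays by its brightest probe) -2.26 ± 0.11 and -1.81, 0.30, 0.73 and 0.31, and Csnk1d, a casein kinase, 0.22 ± 0.12 and 0.14, 1.78, 0.19 and -0.67. No direction is concluded for these genes, though Casp9 and Rps3 count as falls in their lists by the brightest probe. Probes without a gene symbol were called about as often as the rest, 926 of 2269 (40.8%), against 7289 of all 17563 kept probes (41.5%).

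**Figure D5:**
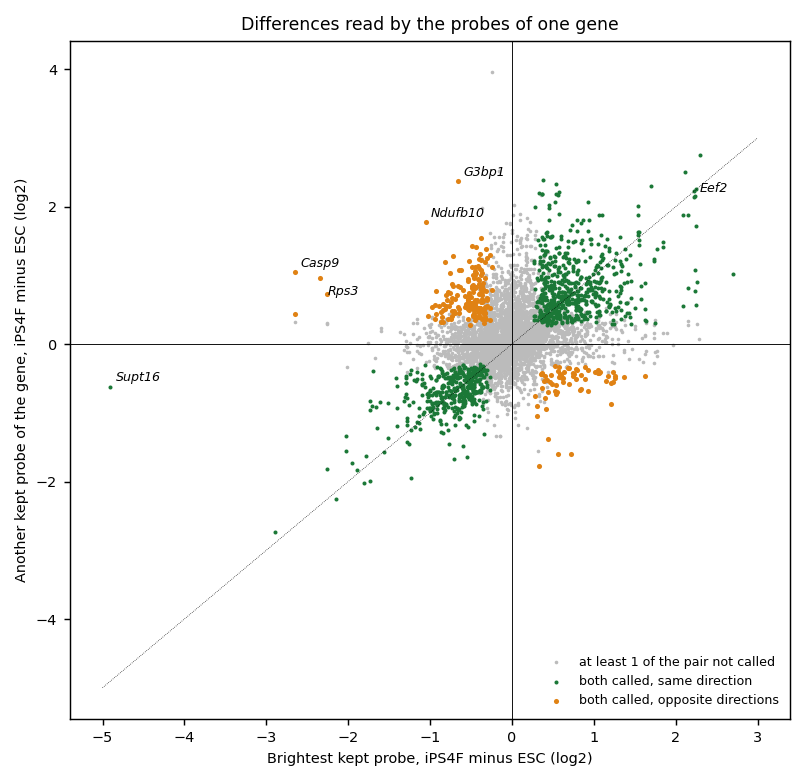
Difference iPS4F minus ESC (log2) of every other kept probe of a gene (vertical) against its brightest kept probe (horizontal), for the 3648 genes with more than 1. Green points were called in the same direction by both probes, orange points in opposite directions, and grey points were not called by at least 1, and Supt16, Rps3, G3bp1, Casp9 and Ndufb10 lie far from the dotted line of equal differences.

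The differences from ESC were last set beside the line made with 6 factors, by a direct test of iPS6F against iPS4F. Of all genes 80 were called (0.792%), and of the 4212 that separated iPS4F from ESC 58 were called (1.38%). A gene that was not called is not shown to be equal in the lines. Rps3, read by its brightest probe, stood at -2.34 in iPS4F and -0.23 in iPS6F relative to ESC, a difference between the lines of 2.11 ± 0.15 (adjusted p = 2.55e-06). The second probe of Rps3 stood at 0.96 in iPS4F and 0.94 in iPS6F, so that difference rests on 1 probe. Msmo1 was lower in iPS6F than in iPS4F, at -0.50 in iPS4F and -2.86 in iPS6F (-2.37 ± 0.13, adjusted p = 7.31e-08). Cep19, a centrosome protein, stood at -0.99 and -2.54, and Atf7ip, a cofactor of H3K9 methylation, at 1.34 and -0.09, its other probe at 0.17 in iPS4F. Acta2, smooth muscle actin, stood at 0.85 and -0.54, its other probes at 0.44, 0.29 and 0.12 in iPS4F, and Sgip1, an endocytic adaptor, at 0.85 and -0.43.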

How the data were processed

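RNA of 12 samples, amplified into labelled cRNA per the labels' protocols, was read on Illumina mouse bead arrays, and samples were grouped by their titles. The deposited table holds an intensity per probe, from 64.1 to 21025, not normalized per the file headers and the values, and beside it a detection p-value, both deposited by the authors. A second deposited table holds log2 values made by the authors, which ranked the probes of each array as the intensity did and had a lowest value of -0.495. Which steps made them is not stated. The submitters' processing notes name BeadStudio 3.2, RMA and lumi without saying which did what.

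The intensities were processed in R 4.3.3 with limma 3.58.1. The neqc function used the detection p-values to model the background, quantile-normalized the arrays with an offset of 16 and took log2, so that folds of dim genes are understated. Probes detected (p under 0.05) on all 3 arrays of at least 1 of the 4 groups were kept, 17563 of 45281, and 15294 of them had 1 gene symbol. In the platform annotation 34885 probes had 1 symbol, 18 several and 10378 none here, and 34807 of the first were matched by gene identifier. A gene was its kept probe of highest mean, and 3648 of 10096 genes had more than 1. With lmFit and eBayes, 1 mean per group was fitted over the 12 arrays, and the Benjamini-Hochberg adjustment ran over all kept probes, with a threshold of 0.05. The number of arrays limits the precision. A gene undetected on every array of 1 group is given as "at least N-fold". That bound sets the bright group's mean against a floor, which on each dim array is its own value or, if higher, the lowest signal among detected probes.

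The groups, the 43 lists (1271 entries, 963 tested, 925 distinct genes) and the rules for named genes were chosen with earlier results of these data known. Named were the 12 highest and 12 lowest genes without overlap between arrays or an opposed probe, genes called by all of several probes (8 a direction), up to 4 called genes of largest difference per list, 6 genes with opposed probes, the 4 factors, and 6 genes that differed most between the iPS lines. The cell type markers are named too. Chac1 was chosen from the values as the lowest of its list, and Aars is named for its promoter match. Neither is among the 189 named genes counted below. Other genes are said to have been named after their values were seen. The alternatives were other background corrections, scalings, filters, probe averaging, the authors' log2 values, only the 6 arrays, a replicate block and leaving out each array. The fits were tested on simulated data. RefSeq promoters (GRCm38.p6) were searched for 2 elements.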

Additional observations from a re-analysis of the deposited data

Results flagged for a closer look

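For 11 of the named genes the difference from ESC was not the same in both iPS lines by the direct test of iPS6F against iPS4F. Lower in iPS6F than in iPS4F were Msmo1 by -2.37 on the log2 scale, Cep19 by -1.55, Atf7ip by -1.43, Acta2 by -1.38, Sgip1 by -1.28, Igf2 by -1.13, Rab25 by -0.64 and Lox by -0.59. Higher in iPS6F were Rps3 by 2.11, Lama1 by 0.69 and Fgf4 by 0.56. Igf2 stood 2.27 above ESC in iPS4F and 1.14 in iPS6F, and Lama1 at -1.54 and -0.85. Rps3 was read by its brightest probe, whose partner was called in the opposite direction in iPS4F. That partner stood at 0.96 in iPS4F and 0.94 in iPS6F, so the difference of Rps3 rests on 1 probe. The other probe of Rab25 stood at 1.49 in iPS4F and 1.32 in iPS6F. The adjusted p of limma's test ran from 7.31e-08 for Msmo1 to 0.032 for Lox.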

How the results depend on the processing

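Without background correction 78 genes were at least 2-fold higher and 77 lower, against 301 and 302, and with the authors' log2 values 873 and 1009. Median scaling without centring called 4007 genes higher and 247 lower, with 1422 and 55 at least 2-fold. Centred on all genes it called 1542 lower and gave 544 and 156 at least 2-fold. Leaving out 1 array at a time gave 1479 to 1611 higher and 2128 to 2294 lower, 282 to 327 and 295 to 328 of them at least 2-fold. Of the 603 genes at least 2-fold apart, 488 stayed called in the same direction under median scaling without centring, 594 with probes averaged, and 602 or 603 in the other alternatives that tested all of them. Of 187 named genes that were called, 141 kept their call and direction in all alternatives run on single genes. Median scaling without centring and no filter on detection were run on counts, and checked for the named genes afterwards. Without centring 139 of the 187 kept their call, all 106 higher and 33 of 81 lower, and 7 changed sign, so that 127 kept it there and in all alternatives run on single genes. With no filter on detection 185 kept it.

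Directions turned for Ndufb10 (0.36), G3bp1 (0.85), Kdm2b (0.11) and Rxrb (0.0203) with probes averaged, and for Pdxdc1 (0.31) under the stricter detection filter, where another probe was read. Flt1 turned to -0.0301 under cyclic loess. Myc, undetected in both groups, gave -0.38 under centred median scaling, -0.0212 under cyclic loess and from -0.0293 to 0.0521 when 1 array was left out. Apart from probes averaged or chosen anew, the cause was not tested. Signal over background limits the dim genes most.

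The replicate numbers do not pair the samples, since same-numbered deviations correlated at -0.13, 0.01 and -0.18. With the replicate number as a block 1733 genes were higher and 2449 lower, and all 189 named genes kept their side of the threshold.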
